A study of Mus musculus with 91 samples.

Results

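The *Rian* miRNAs of the mouse *Dlk1-Dio3* locus, miR-341, miR-370 and the 5p arm of miR-1188, were followed in Cas9-assisted small RNA sequencing (CAS-seq) of early embryos, androgenetic haploid embryonic stem cells (AG-haESCs) and semi-cloned (SC) embryos. Members were taken by name: mmu-miR-341-3p, mmu-miR-341-5p, mmu-miR-370-3p, mmu-miR-370-5p and mmu-miR-1188-5p (written without the species prefix hereafter), which are 5 of the 1504 mature miRNAs in the count table and 5 of the 113 whose gene lies between *Dlk1* and *Dio3*. Of 91 libraries, 62 were from dissected extraembryonic ectoderm (Exe) and epiblast (Epi) at E6.5 and E7.5, with 4 libraries for each combination of genotype, tissue and stage. Epi of control and of *Dnmt*-null embryos had 3 each at the later stage. Embryos were *Dnmt*-null (labelled Dnmt1/3a/3b-TKO), *Dnmt1*-KO, *Dnmt3a/3b*-DKO or control, and the labels give C57BL/6 males crossed with F1 females for the embryos. *Dnmt* genes were inactivated in zygotes by base editing that introduces stop codons, so the mutant libraries come from edited embryos and not from a bred line. AG-haESCs hold only a sperm genome, and the 2i culture they grow in removes the paternal methylation of *H19* and of the intergenic differentially methylated region (*IG*-DMR) that controls *Dlk1-Dio3*. The 11 cell libraries are 3 of wild-type (WT) AG-haESCs, 3 of O48, 3 of a line labelled 408 and 2 labelled Mir-6KO. By the methods, O48 is the line into which 6 miRNA deletions were introduced, and these were made in cells that lack the *H19* and *IG* DMRs (DKO). The genotype of 408 is not given in the sources used here, so its values are only listed. Modified lines were expanded from single cells, and each is therefore a clone. The 18 SC libraries, from embryos made by injecting AG-haESCs into oocytes, are 3 each of WT-SC, *Dnmt*-TKO-SC, DKO-SC and DKO;*Dnmt*-null-SC at E6.5, described as epiblast, and 3 each of Control-SC (from DKO cells) and Mir-6KO;*Dnmt*-TKO-SC at E7.5.

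*Dlk1-Dio3* is an imprinted domain in which the protein-coding genes *Dlk1*, *Rtl1* and *Dio3* are expressed from the paternal chromosome, while the long noncoding RNAs *Meg3*, *Rian* and *Mirg* and the miRNAs processed from the same transcription unit are expressed from the maternal chromosome. Methylation of the *IG*-DMR on the paternal chromosome, maintained by DNMT1, keeps the noncoding genes silent there. A miRNA hairpin is cut into a duplex of a 5p and a 3p strand, and usually one of the strands is loaded into Argonaute and accumulates. The seed, bases 2 to 8 of the mature strand, is the main determinant of which mRNAs are repressed.

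The sequences below, from the RefSeq tables of GRCm38.p6, show what was counted, with the seed in capitals. All 5 members had an entry. miR-1193-3p, a miRNA of the same locus, is added because it carries the same seed as miR-370-5p, and the other members shared their seed with no other RefSeq mature miRNA.
miR-341-3p: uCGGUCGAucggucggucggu
miR-341-5p: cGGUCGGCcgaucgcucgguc
miR-370-3p: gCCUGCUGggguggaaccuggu
miR-370-5p: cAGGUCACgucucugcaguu
miR-1188-5p: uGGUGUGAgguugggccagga
miR-1193-3p: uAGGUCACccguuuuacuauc

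The 2 hairpins that supply 4 of the members are shown next, with the annotated mature strands in capitals. GGUC occurs 7 times in the *Mir341* hairpin, 3 times in miR-341-3p and 2 times in miR-341-5p. GC content is 66.7% in miR-341-3p, 76.2% in miR-341-5p, 68.2% in miR-370-3p, 55% in miR-370-5p and 61.9% in miR-1188-5p.
Mir341: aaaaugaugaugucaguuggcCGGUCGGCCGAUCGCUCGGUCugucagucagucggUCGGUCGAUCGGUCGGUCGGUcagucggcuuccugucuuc
Mir370: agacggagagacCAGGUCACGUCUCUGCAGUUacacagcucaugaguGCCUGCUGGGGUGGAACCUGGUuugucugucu

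The hairpins lie on the plus strand of chromosome 12, *Mir341* at chr12:109611500-109611595, *Mir1188* at chr12:109611822-109611941 and *Mir370* at chr12:109618258-109618336. All 3 are within *Rian* as GENCODE vM21 gives it (chr12:109603940-109661716), and they overlap none of its annotated exons. Only 226 bases separate *Mir341* from *Mir1188*, and 6316 bases lie between *Mir1188* and *Mir370*. They stand apart from the rest of the locus. The nearest other miRNA gene of the table before *Mir341* is 16.103 kb away, and the next after *Mir370* is 90.724 kb away.

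Values are deposited read counts, given here as CPM (counts per 1e+06 of the library's own total), and a count of 3 per library is used as the floor of detection. Totals ran from 45242 to 2394918 counts in Exe and Epi, so that the floor was between 66.3 and 1.25 CPM there. In AG-haESCs the totals were 3813865 to 16501907, and in SC embryos 154061 to 26970637. Nothing in the labels says that replicates came from separate litters or cultures, so p-values measure only the spread between these libraries, and counting error is the only error that a floor covers.

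Some libraries went against their labels or stood apart. The 2 AG-haESC libraries labelled Mir-6KO should lack miR-127, miR-541 and miR-409, yet they held 35728 to 44853 CPM of miR-127-3p, against 551 to 594 in O48, and all 6 of the deleted miRNAs had a higher mean there than in O48. The summed level of their epiblast list, 5 miRNAs of the miR-302 cluster, was 239331 to 268002 CPM, against 924 to 1670 in O48, and their summed miR-290 cluster list was 11427 to 13542, against 93892 to 112217. Across 480 miRNAs, log2 CPM of library 1 correlated best with the mean of E7.5 Control-SC (r = 0.891) and that of library 2 with E7.5 Epi control (r = 0.886), where miRNAs are not independent replicates. They are called the libraries labelled Mir-6KO. E7.5 Mir-6KO;*Dnmt*-TKO-SC embryos are described as heterozygous for the deletions, which come from the injected cell, so an intact oocyte-derived copy remains. They held 34218 to 51921 CPM of miR-127-3p, against 52288 to 67386 in Control-SC. In WT-SC, replicate 3 had 21252 CPM of the epiblast list, against 195381 to 214514 in the other replicates. In Exe the trophoblast (*Sfmbt2* cluster) list summed to 27626 to 68196 CPM, and in Epi to 584 to 25993.

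miR-370-3p was abundant and each other member much less so. Across the 16 Exe and Epi conditions miR-370-3p had a mean of 14219 CPM, which placed it 3 of the 109 locus miRNAs ranked. miR-341-3p had 949 CPM and was 26 of 109. The 5p strands were lower, with miR-370-5p at 63.7 CPM (70 of 109), miR-341-5p at 29.5 CPM (76 of 109) and miR-1188-5p at 4.69 CPM (96 of 109). These are levels in CPM of mature RNAs of nearly equal length, not divided by length. miR-370-3p was above 3 counts in 91 of 91 libraries and miR-341-3p in 88, while miR-370-5p was in 77, miR-341-5p in 64 and miR-1188-5p in 33. Ordered by group mean over 26 conditions, miR-370-3p was highest in E6.5 *Dnmt*-TKO-SC and lowest in 408, and so was miR-341-3p, but ranges of neighbouring groups overlapped for 22 of 25 neighbours of miR-370-3p and 23 of 25 of miR-341-3p.

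**Figure D1:**
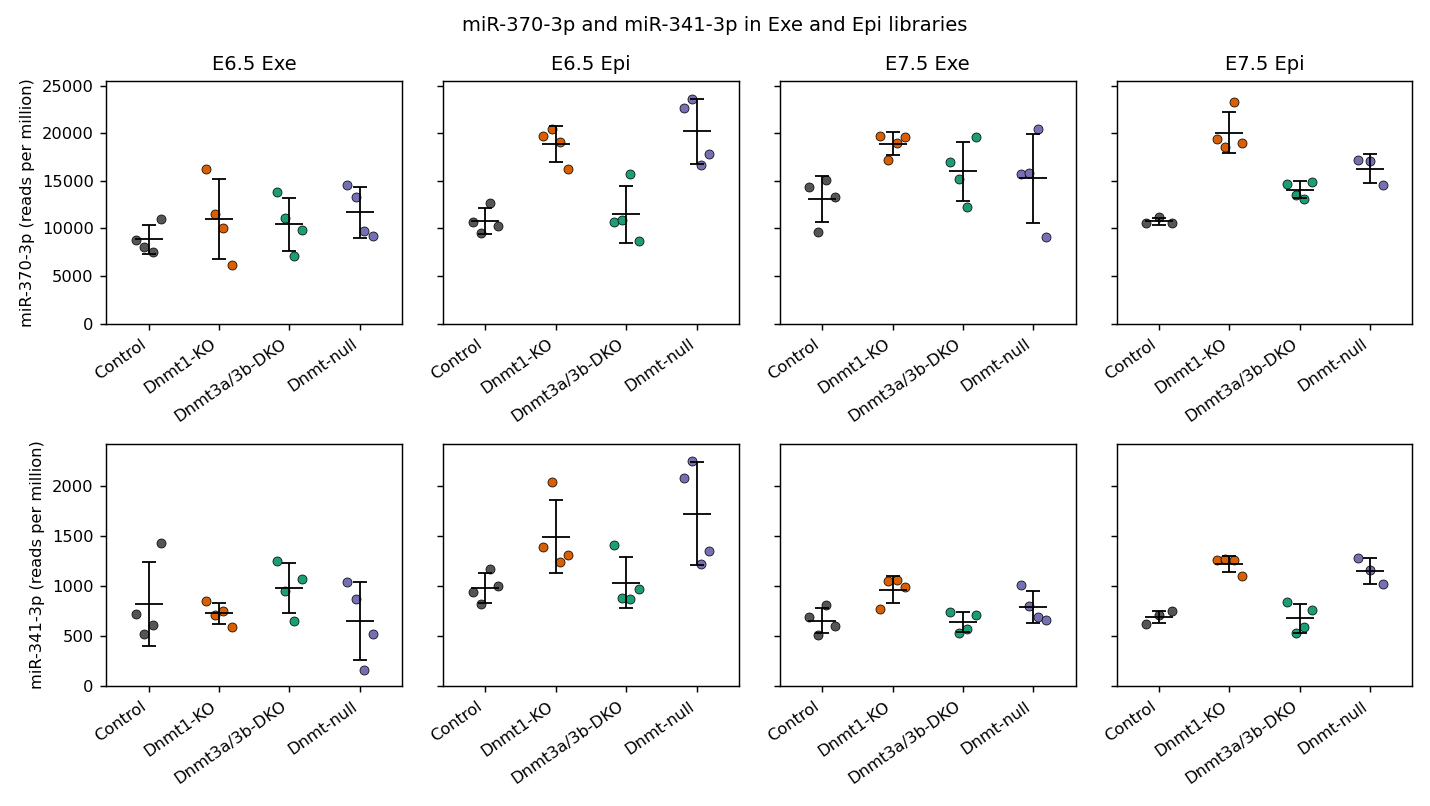
CPM of miR-370-3p (upper row) and miR-341-3p (lower row) in each Exe and Epi library, by tissue, stage and genotype, with axes from 0. Points are libraries, and the bar and whiskers are mean and SD; in E7.5 Epi the 4 Dnmt1-KO libraries of miR-370-3p lie between 18562 and 23231 and the 3 controls between 10510 and 11177.

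In E7.5 Epi, both leading members were higher in *Dnmt1*-KO embryos than in control. miR-370-3p was 10510, 11177 and 10577 CPM in control, and 19429, 18562, 23231 and 18981 in *Dnmt1*-KO embryos. It was 17221, 17021 and 14512 in *Dnmt*-null and 14704, 13458, 13082 and 14893 in *Dnmt3a/3b*-DKO embryos. Every library of each mutant genotype lay above every control library, and the *Dnmt1*-KO libraries lay above all others. Group means were 10754 ± 367.3 (SD, n = 3) in control, 20051 ± 2150 (n = 4) in *Dnmt1*-KO, 16251 ± 1510 (n = 3) in *Dnmt*-null and 14034 ± 899 CPM (n = 4) in *Dnmt3a/3b*-DKO.

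Differences between groups were tested by edgeR's quasi-likelihood method on TMM-normalized counts, over all miRNAs of the tissue and stage, and called at a Benjamini-Hochberg adjusted p under 0.05. In *Dnmt1*-KO against control at E7.5 Epi, 2 of the 5 members were called, both higher, where 16.3% of the 652 miRNAs tested were called and 8.28% were called higher. The balance depends on the scaling, with 54 of 106 called miRNAs higher here and 85 of 99 with TMM factors computed without the locus. miR-370-3p was higher by 0.71 ± 0.10 (SE) on the log2 scale (adjusted p = 9.79e-05, edgeR), a 1.64-fold difference after TMM. It was called under every alternative run, with adjusted p up to 0.0012 when a library was left out. In *Dnmt*-null against control, 33.7% of miRNAs were called (16.4% higher) and 1 member was. miR-370-3p was higher by 0.36 ± 0.11 (adjusted p = 0.0148, edgeR), and the call was lost without control 1 (adjusted p = 0.0598) and under the study's thresholds, which ask for an absolute log2 fold change over 0.5. *Dnmt3a/3b*-DKO differed from control by 0.30 ± 0.10 (adjusted p = 0.0784, edgeR, 7.67% called). The model of these groups alone called it (adjusted p = 0.0169), as did the fit without *Dnmt*-null 1 (0.0449).

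The *Dnmt1*-KO level of miR-370-3p also exceeded those of the other mutants. Against *Dnmt3a/3b*-DKO it was higher by 0.41 ± 0.09 (adjusted p = 0.00794, edgeR, 9.82% of miRNAs called). That call held with each library left out but not under the study's thresholds. *Dnmt*-null was lower than *Dnmt1*-KO by −0.35 ± 0.10 (adjusted p = 0.0326, edgeR, 10.9% called). That call was lost without *Dnmt1*-KO 3 (0.0978), *Dnmt*-null 2 (0.112) or *Dnmt*-null 3 (0.118), without the filter on low counts (0.131), in a model of the 2 groups alone (0.126), under the study's thresholds and with the replicate number as a block (0.0543).

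miR-341-3p at E7.5 Epi separated the genotypes with and without *Dnmt1*. Its levels were 624, 707 and 745 CPM in control and 834, 528, 587 and 762 in *Dnmt3a/3b*-DKO embryos. They were 1258, 1265, 1254 and 1101 in *Dnmt1*-KO and 1279, 1155 and 1021 in *Dnmt*-null embryos. All 7 libraries lacking *Dnmt1* lay above all 7 that kept it. *Dnmt1*-KO was higher than control by 0.63 ± 0.19 (adjusted p = 0.0279, edgeR) and higher than *Dnmt3a/3b*-DKO by 0.75 ± 0.17 (0.00919). *Dnmt*-null was higher than *Dnmt3a/3b*-DKO by 0.62 ± 0.18 (adjusted p = 0.0283, edgeR, 16.4% called), and against control the difference was 0.50 ± 0.20 (0.0609). *Dnmt3a/3b*-DKO against control gave −0.11 ± 0.18 (0.868).

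Of these calls of miR-341-3p, *Dnmt1*-KO against *Dnmt3a/3b*-DKO held with each library left out. *Dnmt1*-KO against control was lost without any control replicate (adjusted p = 0.121, 0.0868 and 0.0518 without 1, 2 and 3) and without *Dnmt1*-KO 1 (0.05) or 2 (0.0592). *Dnmt*-null against *Dnmt3a/3b*-DKO was lost without *Dnmt3a/3b*-DKO 2 (0.0869) or 3 (0.0925), without *Dnmt*-null 1 (0.0682), 2 (0.0577) or 3 (0.0521), and with the replicate block (0.0561). *Dnmt*-null against control was instead called by DESeq2 (0.0115) and with 4 other settings at an adjusted p under 0.05, among them TMM factors computed without the locus (0.00328). It was also called without *Dnmt3a/3b*-DKO 1 (0.00927), and it passed the study's thresholds with a log2 fold change of 0.502. Other measures moved with genotype in the same libraries. The epiblast list summed to 202279 to 212606 CPM in control, 193250 to 203244 in *Dnmt3a/3b*-DKO, 135939 to 200375 in *Dnmt1*-KO and 105333 to 164935 in *Dnmt*-null, and the trophoblast list, in that order, to 1910 to 2241, 2605 to 5422, 2505 to 3135 and 3934 to 8607. The miR-290 cluster list summed to 17584 to 17933 CPM in control, 18594 to 25789 in *Dnmt3a/3b*-DKO, 19576 to 29937 in *Dnmt1*-KO and 27781 to 34830 in *Dnmt*-null. Their part in the results was not tested. In bulk tissue, fewer expressing cells and less RNA per cell cannot be told apart.

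At E6.5 Epi the miR-370-3p libraries fell apart by *Dnmt1*, which those at E7.5 Epi did not do. miR-370-3p was 10657, 9464, 12647 and 10280 CPM in control and 10689, 10837, 15706 and 8661 in *Dnmt3a/3b*-DKO embryos. It was 19670, 20484, 19089 and 16214 in *Dnmt1*-KO and 22634, 23587, 16668 and 17854 in *Dnmt*-null embryos. The 8 libraries lacking *Dnmt1* lay above the 8 with *Dnmt1*. In *Dnmt*-null against control, 1 of 4 members tested was called where 13% of 409 miRNAs were (8.31% higher), namely miR-370-3p with 0.78 ± 0.21 (adjusted p = 0.0159, edgeR). The call was kept in 11 of 16 fits that left out a library and lost without control 1 (0.0539) or 2 (0.0535), *Dnmt*-null 2 (0.0566), *Dnmt3a/3b*-DKO 2 (0.0865) or *Dnmt1*-KO 3 (0.122), and without the low-count filter (0.319). The miR-290 list summed to 21396 to 46538 CPM in *Dnmt*-null and 68721 to 73823 in control, and the epiblast list to 48473 to 100114 and 130389 to 200354. Library totals were 45242 to 123169 and 281158 to 458837 counts in that order. Their part in the result was not tested.

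The E6.5 Epi difference of *Dnmt1*-KO was of similar size and missed the threshold, in a comparison where 0.733% of miRNAs were called. miR-370-3p differed by 0.76 ± 0.21 from control (adjusted p = 0.0839, edgeR) and by 0.73 ± 0.21 from *Dnmt3a/3b*-DKO (0.191, where 0% of miRNAs were called). *Dnmt*-null against *Dnmt3a/3b*-DKO gave 0.75 ± 0.21 (adjusted p = 0.0771, edgeR, 1.22% called). DESeq2 called all 3 (adjusted p = 0.0132, 0.0172 and 0.0124 in that order). *Dnmt1*-KO against control was also called without *Dnmt*-null 1 (0.0421), with TMM factors computed without the locus (0.037) and in the model of the 2 groups (0.0455). *Dnmt3a/3b*-DKO and control differed by 0.03 ± 0.21 (0.955, 3.42% called), and *Dnmt*-null and *Dnmt1*-KO by 0.01 ± 0.21 (0.978, 1.96% called).

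miR-341-3p at E6.5 Epi was 936, 818, 1173 and 1000 CPM in control, 1385, 2034, 1243 and 1306 in *Dnmt1*-KO and 2078, 2243, 1215 and 1348 in *Dnmt*-null embryos. The 4 control libraries lay below these 8. It was 1410, 879, 871 and 972 in *Dnmt3a/3b*-DKO embryos, which overlapped the other groups. No difference passed the test, with 0.55 ± 0.33 for *Dnmt1*-KO (adjusted p = 0.595, edgeR) and 0.67 ± 0.33 for *Dnmt*-null (0.204) against control. The 81 to 253 counts per *Dnmt*-null library behind these levels are few, and the epiblast list was 48473 to 100114 CPM in *Dnmt*-null against 130389 to 200354 in control. Its part in the result was not tested.

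In Exe no member was called in any of the genotype comparisons at either stage. At E7.5, miR-370-3p was 14289, 9613, 15042 and 13308 CPM in control, below the 19744, 17155, 18982 and 19646 of *Dnmt1*-KO. It was 15666, 15837, 20430 and 9081 in *Dnmt*-null and 16998, 15166, 12221 and 19622 in *Dnmt3a/3b*-DKO, both of which overlapped control. *Dnmt1*-KO differed from control by 0.59 ± 0.20 in miR-370-3p (adjusted p = 0.0909, edgeR, 5.03% of 597 miRNAs called) and by 0.61 ± 0.22 in miR-341-3p (0.111). Both were called by DESeq2 (0.0355 and 0.0283), and miR-370-3p also with TMM factors computed without the locus (0.0353) or without *Dnmt*-null 4 (0.0391).

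The E7.5 Exe levels of miR-341-3p were 689, 512, 808 and 597 CPM in control, 765, 1045, 1055 and 984 in *Dnmt1*-KO, 1006, 797, 686 and 657 in *Dnmt*-null and 743, 533, 573 and 708 in *Dnmt3a/3b*-DKO. *Dnmt1*-KO libraries lay above those of *Dnmt3a/3b*-DKO, by 0.68 ± 0.22 (adjusted p = 0.16, edgeR, 1.68% called; 0.0211 by DESeq2). *Dnmt*-null differed from control by 0.23 ± 0.20 in miR-370-3p (0.586) and 0.29 ± 0.22 in miR-341-3p (0.533), where 9.88% of miRNAs were called. *Dnmt3a/3b*-DKO differed from control by 0.26 ± 0.20 in miR-370-3p (0.891, 3.02% called), and 1.17% and 3.85% of miRNAs were called where *Dnmt*-null was set against *Dnmt1*-KO and *Dnmt3a/3b*-DKO.

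At E6.5 Exe the ranges of all genotypes overlapped. miR-370-3p was 7511 to 10970 CPM in control, 7075 to 13772 in *Dnmt3a/3b*-DKO, 6143 to 16284 in *Dnmt1*-KO and 9156 to 14572 in *Dnmt*-null. The differences from control were 0.05 ± 0.27, 0.16 ± 0.27 and 0.19 ± 0.27 in that order (adjusted p = 0.962, 0.911 and 0.868, edgeR), in comparisons where 0.532%, 0% and 0.532% of the 376 miRNAs were called. Between mutants 0% of miRNAs were called. No member reached an unadjusted p under 0.05 at E6.5 Exe, and DESeq2 called none. miR-341-3p was 518 to 1432 CPM in control and 160 to 1038 in *Dnmt*-null, whose lowest library rests on 12 counts.

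**Figure D2:**
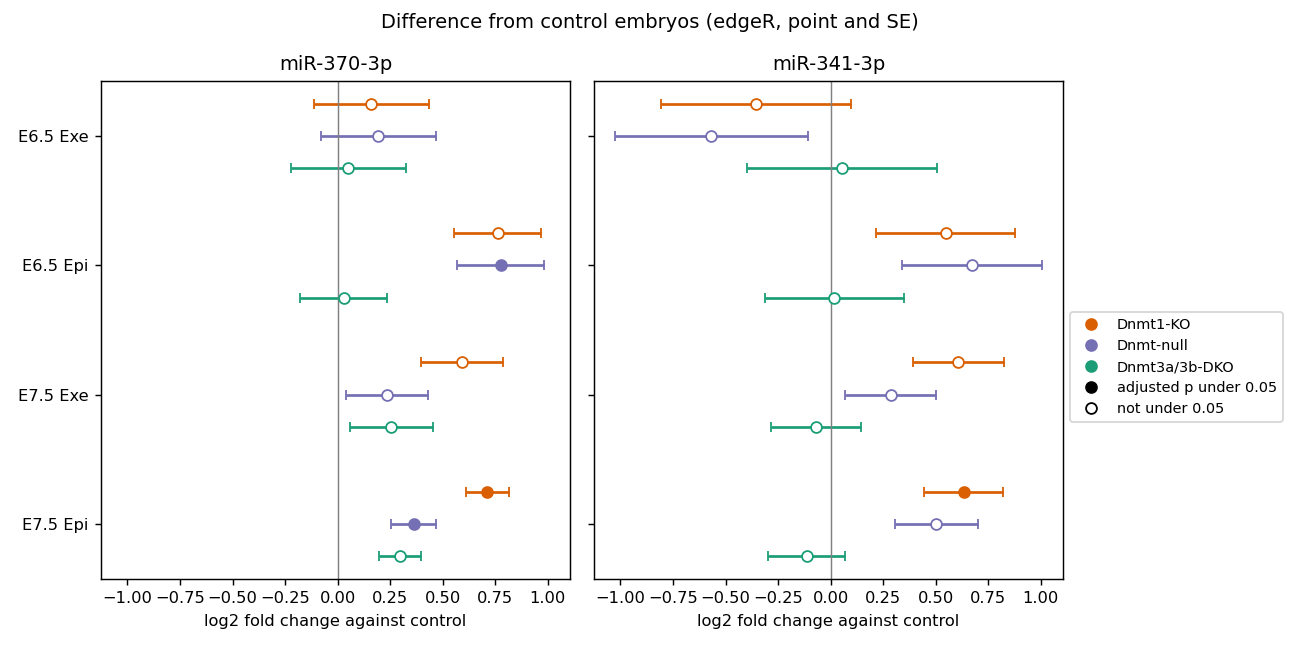
Log2 fold change from control with its SE for miR-370-3p (left) and miR-341-3p (right), by tissue and stage; filled points have an adjusted p under 0.05 in edgeR. For miR-370-3p the Dnmt1-KO difference is 0.71 in E7.5 Epi, 0.59 in E7.5 Exe, 0.76 in E6.5 Epi and 0.16 in E6.5 Exe.

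Over the 4 tissue and stage sets, 16 of 20 member values passed the filter on low counts. Called values, all of them of miR-370-3p or miR-341-3p, numbered 2 for *Dnmt1*-KO against control, 2 for *Dnmt*-null against control and 2 for *Dnmt1*-KO against *Dnmt3a/3b*-DKO, and 0 for *Dnmt3a/3b*-DKO against control with edgeR (1 at an unadjusted p under 0.05, 0 with DESeq2). The comparisons share their control libraries. With the study's thresholds, an absolute log2 fold change over 0.5 and an unadjusted p under 0.05, 5 of the 16 values were called for *Dnmt1*-KO against control, 3 of miR-370-3p and 2 of miR-341-3p, with 0 for *Dnmt*-null against *Dnmt1*-KO and 2 for *Dnmt*-null against *Dnmt3a/3b*-DKO. The shares of all miRNAs called that way, with the stages in order and Exe before Epi at each, were 8.78%, 12%, 16.8% and 25% for the first, 3.72%, 18.1%, 14.9% and 20.1% for the second and 1.6%, 15.6%, 9.55% and 21.3% for the last. These thresholds also called 2 values for *Dnmt*-null against control, 3 for *Dnmt1*-KO against *Dnmt3a/3b*-DKO and 0 for *Dnmt3a/3b*-DKO against control. The shares of all miRNAs are not given for these. Whether the *Dnmt1*-KO or *Dnmt*-null effect differed between tissues or stages was tested directly as an interaction over the 62 libraries. None of 32 tested values was called by edgeR, and 0 had an unadjusted p under 0.05. The *Dnmt*-null effect on miR-341-3p was higher in E6.5 Epi than in E6.5 Exe by 0.82 ± 0.45 (adjusted p = 0.334, edgeR), and this was the 1 value that DESeq2 called (1.33, 0.0135). In that contrast edgeR called 0.912% of miRNAs, and in the other 7 contrasts 0%, 0.456%, 0.608%, 0.76% or 10.6%.

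In control embryos, no member was called between Exe and Epi. miR-370-3p was 7511 to 10970 CPM in E6.5 Exe and 9464 to 12647 in E6.5 Epi, a difference of −0.36 ± 0.17 (adjusted p = 0.123, edgeR, where 29.4% of 558 miRNAs were called). At E7.5 the difference was 0.19 ± 0.19 (0.531, 33.2% called). Of 8 tested values 0 were called by edgeR or DESeq2, and 0 had an unadjusted p under 0.05. The E6.5 difference of miR-370-3p was called with TMM factors computed without the locus (0.00336) and when E6.5 Exe control 4 (0.00622), E7.5 Exe control 1 (0.0337), 3 (0.0308) or 4 (0.0323) or E7.5 Epi control 2 (0.0378) or 3 (0.0317) was left out. That of miR-341-3p was called only without E6.5 Exe control 4 (0.0116), whose 1432 CPM lay above the 518 to 715 of the other replicates.

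Between stages, miR-370-3p was higher in control Exe at E7.5 than at E6.5, by 0.58 ± 0.17 (adjusted p = 0.0313, edgeR, 14.3% called). The 9613 CPM of E7.5 Exe control 2 fell within the E6.5 range. The epiblast list summed to 17588 to 30822 CPM in these E6.5 libraries and 33368 to 45944 at E7.5, and the miR-290 list to 74858 to 112579 and 50343 to 63939, neither overlapping. Their part in the result was not tested. The call was lost with RLE normalization (0.113), DESeq2 (0.0759) and the model of the 2 groups (0.0981), and without E6.5 Exe control 2 (0.111) or 3 (0.0634) or E7.5 Exe control 1 (0.101), 3 (0.087) or 4 (0.0743). In control Epi it differed by 0.03 ± 0.18 (0.948), while miR-341-3p had 624 to 745 CPM at E7.5 against 818 to 1173 at E6.5, a difference of −0.48 ± 0.33 (0.34, 26.9% called).

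The low-abundance strands gave no called difference between embryo groups. miR-370-5p ranged from 0 to 259 CPM in the Exe and Epi libraries, and its group means from 32.0 ± 60.5 (SD, n = 4) in E6.5 Epi *Dnmt3a/3b*-DKO to 117 ± 88.7 CPM (n = 4) in E6.5 Epi *Dnmt*-null. Without *Dnmt3a/3b*-DKO 1, which alone of its group exceeded 3 counts, E6.5 Epi *Dnmt3a/3b*-DKO was called against control (adjusted p = 0.0202, edgeR); with it the value was −1.71 ± 1.06 (0.426). miR-341-5p group means in Exe and Epi ran from 10.6 ± 10.1 in E7.5 Exe *Dnmt*-null to 58.4 ± 14.8 CPM in E6.5 Epi control (n = 4 each). miR-1188-5p was at 0 in all 4 libraries of E6.5 Exe control, E7.5 Exe control and E6.5 Epi *Dnmt3a/3b*-DKO, and reached 42.8 CPM, or 12 counts, in E7.5 Epi *Dnmt*-null. At these depths differences of the size seen for miR-370-3p were not detectable in them, since the SE of their log2 fold changes in E7.5 Epi was 0.68 to 1.62 for *Dnmt1*-KO against control.

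In AG-haESCs, where the only genome is paternal, the members except miR-341-5p were present in WT cells and far lower in O48. miR-341-5p was not above the floor of detection in any WT or O48 library. miR-370-3p was 1638, 1467 and 1586 CPM in WT and 88.3, 90.5 and 68.6 in O48. miR-341-3p was 76.1, 84.9 and 91.5 CPM in WT and 3.45, 0 and 5.58 in O48. The groups did not overlap. Of 5 members tested, 3 were called lower in O48, where 11.5% of 773 miRNAs were called lower and 13.7% in all. miR-370-3p fell by 4.21 on the log2 scale (SE 0.19, adjusted p = 2.47e-06, edgeR), and the difference of miR-341-3p was −4.80 ± 0.96 (0.0123). The latter call was lost without O48 1 (0.0551).

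The remaining strands were at or near the floor in O48. miR-370-5p was 21.9, 14.8 and 26.2 CPM in WT and 0 in all 3 O48 libraries (adjusted p = 0.000694, edgeR). Its WT mean was 38.6-fold the mean O48 floor of 3 counts per library, a ratio of means and no lower limit for single libraries. miR-1188-5p was 4.86, 3.99 and 10.8 CPM in WT and 0 in O48, with a WT mean 12.04-fold the same floor. It was not called in the fit with the libraries labelled Mir-6KO (adjusted p = 0.111, edgeR), but was without them (0.013), without either of them (0.0258 and 0.0194) and by DESeq2 (0.0298). miR-341-5p had at most 2 counts in any WT or O48 library, and no fold is given. The 408 line held 33.4, 22.8 and 33.3 CPM of miR-370-3p, 0, 2.67 and 0 of miR-341-3p and none of the other members. The miR-290 list summed to 83033 to 85193 CPM in WT and 93892 to 112217 in O48, and the epiblast list to 3659 to 3914 and 924 to 1670. Their part in the result was not tested.

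The 2 libraries labelled Mir-6KO did not share this low level. They had 21429 and 14050 CPM of miR-370-3p and 967 and 920 of miR-341-3p, within the ranges of the Epi libraries, and the lower value of miR-370-3p lay below all SC libraries. All 5 members were tested against O48, and 4 were called higher, where 20.4% of miRNAs were called higher and 52.1% in all. The log2 difference was 7.23 ± 0.22 in miR-370-3p (adjusted p = 1.76e-07, edgeR) and 7.81 ± 1.102 in miR-341-3p (0.000639). The mean of miR-370-5p was 83.1-fold the mean O48 floor (0.000208). miR-341-5p was uneven, at 13.1 and 2.70 CPM, with a mean 14.5-fold that floor (adjusted p = 0.0328, edgeR). That call was lost without O48 1 (0.0506), 2 (0.0503) or 3 (0.0624), Mir-6KO 1 (0.147) or WT 1 (0.0506), without the low-count filter (0.0601) and with the replicate block (0.172). miR-1188-5p was 6.97 and 0 CPM (adjusted p = 0.0662, edgeR), and was called by DESeq2 (0.0473) and without Mir-6KO 2 (0.0111). None of the deleted genes is a member, and the difference in the epiblast and miR-290 lists given above runs along the same groups. Its part in the result was not tested.

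In SC embryos the leading members were within a few-fold of their Exe and Epi levels. miR-370-3p was 17987, 16664 and 36232 CPM in WT-SC, 33928, 18678 and 26646 in *Dnmt*-TKO-SC and 15817, 14872 and 16819 in DKO-SC at E6.5. The highest WT-SC value belongs to replicate 3, which stood apart above. miR-341-3p was 1153, 1449 and 550 CPM in WT-SC, the lowest again replicate 3, and 1538, 1960 and 1707 in *Dnmt*-TKO-SC and 1280, 1392 and 1225 in DKO-SC. No member was called by edgeR or DESeq2 in either comparison, 0 of 4 tested had an unadjusted p under 0.05, and 1.52% and 0.217% of 461 miRNAs were called. *Dnmt*-TKO-SC differed from WT-SC by −0.21 ± 0.48 in miR-370-3p (adjusted p = 0.836, edgeR) and 0.49 ± 0.29 in miR-341-3p (0.382). DKO-SC differed from WT-SC by −0.86 ± 0.48 in miR-370-3p (0.424) and 0.20 ± 0.29 in miR-341-3p (0.733). Without WT-SC replicate 3 the miR-370-3p differences were 0.40 (adjusted p = 0.386, edgeR) and −0.13 (0.898), and those of miR-341-3p 0.19 (0.576) and 0.00 (0.993).

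Where *Dnmt* loss was added to DKO-SC, miR-341-3p was lower and miR-370-3p was not called. miR-341-3p was 1205, 1078 and 1096 CPM in DKO;*Dnmt*-null-SC, below all 3 DKO-SC libraries, a difference of −0.30 ± 0.09 (adjusted p = 0.0148, edgeR, where 35.3% of 603 miRNAs were called). The call was lost without DKO;*Dnmt*-null-SC 2 (0.097) or 3 (0.0576) and with TMM factors computed without the locus (0.0724), and the difference is under the size that the study's thresholds ask for, which 31% of miRNAs passed. miR-370-3p was 18028, 17449 and 20167 CPM, above all 3 DKO-SC libraries, with a difference of 0.13 ± 0.09 (0.324). The groups come from separate tables, so table and group cannot be told apart. The epiblast list summed to 177971 to 196784 CPM in DKO-SC and 130119 to 147052 in DKO;*Dnmt*-null-SC, the trophoblast list to 14904 to 16929 and 18163 to 23493, and the list of 5 blood miRNAs to 22.3 to 34.2 and 82.0 to 135, with no overlap in any of them. Their part in the result was not tested.

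At E7.5, Control-SC and Mir-6KO;*Dnmt*-TKO-SC overlapped in both leading members. miR-370-3p was 23166, 20052 and 21077 CPM in the former and 29423, 22743 and 24745 in the latter, a difference of 0.01 ± 0.13 after TMM (adjusted p = 0.995, edgeR). miR-341-3p was 1163, 900 and 972 against 1168, 1100 and 1355 CPM, with 0.02 ± 0.20 (0.995). No member was called by edgeR or DESeq2, 0 of 5 had an unadjusted p under 0.05, and 3.08% of 585 miRNAs were called. miR-341-5p was uneven among the latter libraries, with 708, 1 and 157 counts of totals of 9267285, 16808675 and 8570373.

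**Figure D3:**
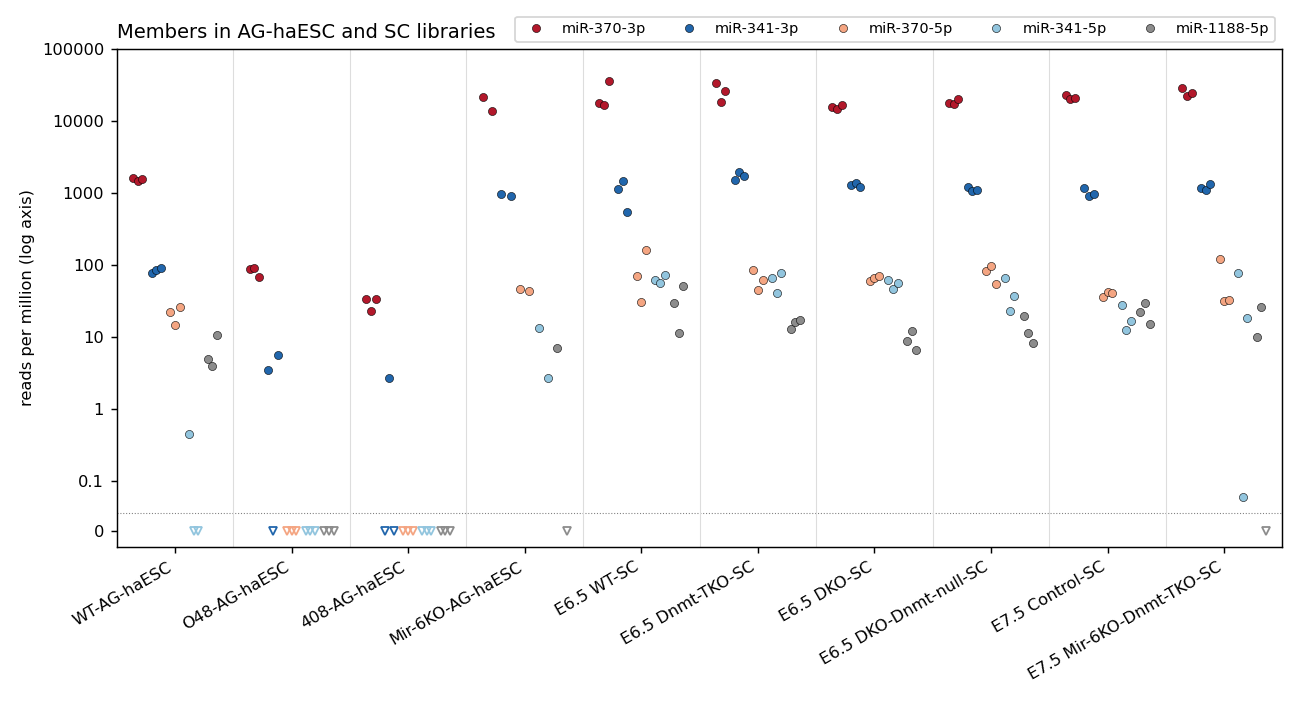
CPM (log axis) of the 5 members in each AG-haESC and SC library, with open triangles on the line marked 0 for libraries without a count. miR-370-3p lies between 1467 and 1638 in WT-AG-haESC, between 68.6 and 90.5 in O48, and between 14050 and 36232 in all libraries to the right of 408.

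The 3p strand dominated the miR-341 and miR-370 hairpins throughout. Summed over libraries, miR-370-3p made up 99.7% of 3p and 5p counts (3436797 against 8634) and was the higher strand in 91 of 91 libraries. miR-341-3p made up 97.7% (174695 against 4050) and was higher in 88 of 91, the others having no count of either. The 5p share of miR-370 was 0.996% to 1.63% in WT-AG-haESC, 0.216% to 0.312% in the libraries labelled Mir-6KO, 0.132% to 0.547% in SC embryos and 0% to 2.86% in Exe and Epi, a range that spans that of WT-AG-haESC. O48 had 0 of 1409 miR-370 counts on the 5p strand, and 408 had 0 of 414. Counting error alone would allow shares of up to 0.213% and 0.725%. Libraries of a group differed by more than that, with 0 of 1716 and 17 of 594 counts in E6.5 Exe control 4 and 1. These values are therefore no upper limits, and no difference in share was tested.

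miR-1188 did not keep to a single strand order. Its 3p strand was the more abundant in 76 libraries and its 5p strand in 3, with 12 equal, of which 11 had no count of either and 1, WT-SC 1, had 10 of each. Those 3 were all of the WT-AG-haESC libraries, with 22 and 0, 20 and 16, and 41 and 8 counts of 5p and 3p. The 5p share was thus 55.6% to 100% there, against 0% to 38.7% in Exe and Epi (median 0.413%) and 0% to 50% in SC embryos (median 26.3%). The counts behind these shares are low, and the shares are given without a test.

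The other miRNAs of the locus are set beside the members here. In E7.5 Epi *Dnmt1*-KO against control, 23 of the other 94 locus miRNAs tested were higher and 0 lower, with a median log2 fold change of 0.48 against −0.26 outside the locus. By log2 fold change miR-370-3p was 33 and miR-341-3p 37 of 99 there. In *Dnmt*-null against control, 33 of the other 94 were higher and 1 lower with a median of 0.57, and miR-370-3p was 67 and miR-341-3p 60 of 99. The locus as a whole took 13.0% to 13.8% of counts in control, 20.8% to 24.8% in *Dnmt*-null, 21.9% to 24.7% in *Dnmt1*-KO and 14.7% to 16.2% in *Dnmt3a/3b*-DKO, and miR-370-3p was 7.997% to 8.10%, 6.94% to 7.04%, 8.01% to 9.42% and 8.88% to 9.51% of the locus in the same order. In O48 against WT-AG-haESC, 62 of the other 87 were lower and 0 higher, with a median of −4.30, and the locus fell from 4.21% to 4.33% of counts to 0.203% to 0.217%. miR-370-3p was 41 and miR-341-3p 71 of 92.

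**Figure D4:**
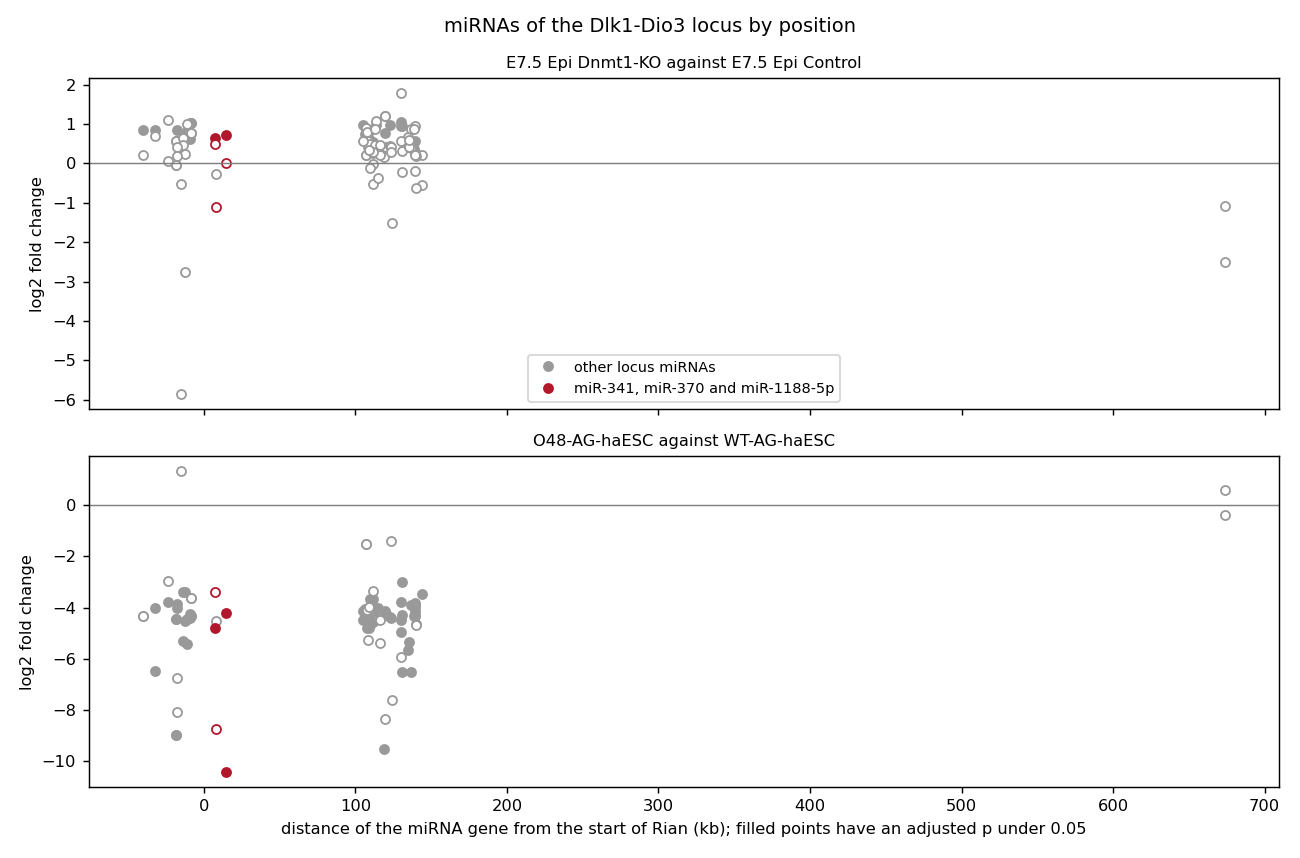
Log2 fold change of each tested locus miRNA against the distance of its gene from the start of Rian, for E7.5 Epi Dnmt1-KO against control (top) and O48 against WT-AG-haESC (bottom), with members in red and filled points at an adjusted p under 0.05. The members sit 7.56 to 14.318 kb from the start of Rian, apart from the groups of genes on either side; the lowest red points at the bottom are fitted values of strands at 0 in O48 and are no measure of size.

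The miRNAs whose pattern was most like that of miR-370-3p and miR-341-3p came from the same locus, while some of those nearest to the 5p strands did not. Over the means of 26 conditions, the highest Pearson correlations of log2 CPM among 570 miRNAs were with miR-1193-3p (0.992), miR-411-3p (0.992) and miR-381-3p (0.990) for miR-370-3p, and with miR-431-3p (0.991), miR-673-5p (0.989) and miR-370-3p (0.988) for miR-341-3p. Of the 20 nearest miRNAs, all 20 were in the locus for each of them over these conditions. For miR-370-5p the nearest were miR-382-3p (0.926), miR-136-5p (0.908) and miR-3071-3p (0.908), for miR-341-5p miR-421-3p (0.841, outside the locus), miR-136-5p (0.838) and miR-3071-3p (0.838), and for miR-1188-5p miR-1197-3p (0.777) and, both outside the locus, miR-135a-5p (0.699) and miR-374c-5p (0.694). miR-136-5p and miR-3071-3p come from genes that overlap on opposite strands and had equal correlations, so they may not be separate neighbours. Of the 20 nearest, 20 were in the locus for miR-370-5p, 15 for miR-341-5p and 11 for miR-1188-5p. These points share libraries and depth, and the AG-haESC conditions hold the lowest values of both leading members. Over the 16 Exe and Epi conditions alone, miR-1193-3p stayed nearest to miR-370-3p (0.854), and miR-770-5p was nearest to miR-341-3p (0.791), but only 16 and 7 of their 20 nearest were in the locus. For miR-370-5p, miR-341-5p and miR-1188-5p the numbers were 10, 6 and 7 of 20 over these conditions.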

How the data were processed

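Members and lists were chosen with earlier results of these data known. The deposited values are whole-number counts per mature miRNA that the authors made from CAS-seq libraries of low-input RNA. Their steps were trimming and length selection with fastp 0.20.1, alignment with bowtie 1.2.1.1 to GRCm38 and counting on miRBase 21. The libraries were PCR-amplified and no molecular identifiers are described, so counts are reads and not molecules. Counts of the whole table were tested here with edgeR 4.0.16 in R 4.3.3: TMM factors, removal of low counts by filterByExpr (minimum count 10), and the quasi-likelihood test within 4 tissue and stage sets, control embryos, AG-haESCs without 408 and 3 SC sets. DKO-SC and DKO;*Dnmt*-null-SC tables were joined by shared miRNA names. p-values were adjusted by Benjamini and Hochberg over all miRNAs tested, and the SE is the log2 fold change divided by the square root of F. Members were named by the rule of their position between *Rtl1* and the *Mirg* cluster, and likeness by the highest Pearson correlations. Alternatives were RLE factors, TMM without the locus, DESeq2 1.42.0, no filter, a filter on the mean, the study's thresholds, the replicate block, models of 2 groups and each library left out. The procedure was tested on simulated data. A previous version of the embryo table with another numbering of *Dnmt*-null replicates was set aside. Of 118 pairs of replicates, the closest had a chi-square of 4.77 per degree of freedom, so no library was counted as a copy.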

Additional observations from a re-analysis of the deposited data

Results flagged for a closer look

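In groups of 4 libraries, 8 of 70 tests of the 5 members found a library far from the others, and chance flags about 1 in 20 groups. That rate does not apply to the 4 of miR-1188-5p, where the other 3 libraries are at 0 and any count stands apart by construction. For miR-1188-5p these were E6.5 Epi *Dnmt*-null 4 (16.2 CPM, 2 counts), E6.5 Exe *Dnmt*-null 4 (21.1 CPM, 2 counts), E6.5 Exe *Dnmt1*-KO 1 (8.28 CPM, 3 counts) and E7.5 Exe *Dnmt1*-KO 4 (2.66 CPM, 4 counts), each in a group whose other libraries had none. miR-341-3p in E7.5 Epi *Dnmt1*-KO 4 was the lowest of its group at 1101 CPM, against 1254 to 1265. miR-341-5p was 128 CPM (20 counts) in E6.5 Exe control 4, against 0 to 19.8. miR-370-5p was 203 CPM (57 counts) in E6.5 Epi control 2, against 67.6 to 80.4, and 123 CPM (26 counts) in E6.5 Epi *Dnmt3a/3b*-DKO 1, against 0 to 5.31.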

How the results depend on the processing

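Counts of called values (a member in a tissue and stage set counts once per set) changed as follows, and no called direction reversed. *Dnmt1*-KO against control went from 2 to 5 under the study's thresholds, 4 with TMM factors computed without the locus and 5 with DESeq2, and *Dnmt*-null against control from 2 to 1 without the filter. *Dnmt3a/3b*-DKO against control went from 0 to 1 in the model of 2 groups. *Dnmt1*-KO against *Dnmt3a/3b*-DKO went from 2 to 4 with DESeq2. *Dnmt*-null against *Dnmt1*-KO went from 1 to 0 under the study's thresholds, without the filter, in the model of 2 groups and with the replicate block. *Dnmt*-null against *Dnmt3a/3b*-DKO went from 1 to 2 under the study's thresholds, TMM without the locus and DESeq2, and to 0 with the replicate block. Exe against Epi went from 0 to 1 with TMM without the locus, E7.5 against E6.5 from 1 to 0 with RLE, DESeq2 and the model of 2 groups, and the interaction from 0 to 1 with DESeq2. DKO;*Dnmt*-null-SC against DKO-SC went from 1 to 0 under the study's thresholds and TMM without the locus. The cause was not tested. The other 98 of 119 counts stayed within 1.5 times. Leaving out a library gave 1 to 3 called values for *Dnmt*-null and for *Dnmt1*-KO against control, 0 to 1 for *Dnmt3a/3b*-DKO against control, 2 to 2 for *Dnmt1*-KO against *Dnmt3a/3b*-DKO, 0 to 1 for *Dnmt*-null against either mutant, 0 to 2 for Exe against Epi, 0 to 1 for E7.5 against E6.5, 2 to 4 for O48 against WT, 3 to 5 for Mir-6KO against O48, 0 to 1 for DKO;*Dnmt*-null-SC and 0 to 0 for the interaction and the other SC comparisons. The replicate block took Mir-6KO against O48 from 4 to 3. Same-numbered libraries had median correlations of deviations of −0.0216 to 0.140 over the sets, and the numbers were not taken as pairs. Some pairs shared more. The highest correlation was 0.566 in E6.5 Epi, where 10 of 24 pairs were above 0.1, and 0.353 in the E6.5 SC set with WT-SC, where 5 of 9 were. Another scaling moved the median log2 fold change of all miRNAs by −0.466 to 0.338 in embryos (TMM without the locus) or −0.147 to 0.158 (RLE). Depth limits the 5p strands most.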

Other observations

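miR-1188-3p, the partner strand of miR-1188-5p, is no member of the list. Its mean over the 16 Exe and Epi conditions was 66.1 CPM, against 4.69 CPM for miR-1188-5p, and it ranked 69 of 109 locus miRNAs.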
